A study of Homo sapiens with 4 samples.

Results

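The major histocompatibility region (MHC) was described here as the bins of chromosome 6 between 29600000 and 33400000 in hg19. It comprised 95 bins of 40 kb out of the 71569 bins with a value in both cell lines. Fixed positions at 31480000 and 32370000 divided it into class I with 47 bins, class III with 22 and class II with 26, in that order from the telomeric to the centromeric side. Each value is the authors' log2 enrichment of DNA recovered with lamin B1, a protein of the mesh under the inner nuclear membrane, over input DNA of the same line. The cells were of the established lines LNCaP, from a prostate adenocarcinoma, and VCaP, from prostate cancer that had spread to bone, and were grown untreated in different media with serum and fixed with formaldehyde. Each line had 1 lamin B1 library, made with a rabbit polyclonal antibody, and 1 input library that saw no antibody. Every difference below therefore lacks a replicate check and describes these libraries, and the errors given are noise between bins of the same library. Read numbers are unknown.

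The MHC holds many of the genes by which cells show peptides to the immune system. Class I molecules (such as HLA-B and HLA-C) are made by nearly all nucleated cells and display peptides from inside the cell to cytotoxic T cells, whereas class II molecules (HLA-DR, HLA-DQ and HLA-DP) are made mainly by professional antigen-presenting cells and are inducible by interferon-gamma in others. Class III, between them, holds complement and cytokine genes next to housekeeping genes. DNA at the nuclear lamina is typically gene-poor and little transcribed, and the MHC is among the gene-dense parts of the genome.

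By gene order in the RefSeq table of GRCh38.p14, class I ran from MOG to MICB with 51 protein-coding genes, class III from MCCD1 to BTNL2 with 61, and class II from HLA-DRA to CUTA with 36. Over the hg19 lengths of the classes this was 27.1 protein-coding genes per Mb in class I, 68.5 in class III and 35.0 in class II. The table also listed 61 pseudogenes in class I, 9 in class III and 18 in class II. These end genes were taken from textbook knowledge as the genes nearest the borders, and genes were not placed in single bins. HLA-F and HLA-G are numbers 3 and 4 of the protein-coding genes of class I from its telomeric end, HLA-E is number 18, and HLA-C, HLA-B, MICA and MICB are its last 4. TNF is number 6 of class III, C4A, C4B, CYP21A2 and TNXB are numbers 45 to 48, and NOTCH4 is number 59. In class II, the chains HLA-DRA, HLA-DRB5, HLA-DRB1, HLA-DQA1 and HLA-DQB1 open the order, HLA-DPA1 and HLA-DPB1 are numbers 17 and 18, and TAPBP is number 30.

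The promoter windows of 4 genes are shown as examples of the sequence features counted by class: HLA-B for class I, TNF for class III, and HLA-DRB1 and HLA-DPB1 for class II. Each holds 300 bases from RefSeq, 250 before and 50 after the gene's start, 5′ to 3′ on the gene's strand. The motif ATTGG and its reverse complement CCAAT, the core of the Y box of class I and class II promoters that NF-Y binds, are in capitals, on either strand. The positions are of GRCh38.p14 and cannot be laid over the hg19 bins.
HLA-B (chr6:31357130-31357429, GRCh38.p14, minus strand): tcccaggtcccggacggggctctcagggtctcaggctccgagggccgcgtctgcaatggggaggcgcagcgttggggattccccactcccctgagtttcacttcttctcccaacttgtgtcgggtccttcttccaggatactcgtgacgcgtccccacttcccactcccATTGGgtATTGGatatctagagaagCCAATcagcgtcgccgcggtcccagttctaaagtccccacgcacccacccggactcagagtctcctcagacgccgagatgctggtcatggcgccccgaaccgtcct
TNF (chr6:31575315-31575614, GRCh38.p14, plus strand): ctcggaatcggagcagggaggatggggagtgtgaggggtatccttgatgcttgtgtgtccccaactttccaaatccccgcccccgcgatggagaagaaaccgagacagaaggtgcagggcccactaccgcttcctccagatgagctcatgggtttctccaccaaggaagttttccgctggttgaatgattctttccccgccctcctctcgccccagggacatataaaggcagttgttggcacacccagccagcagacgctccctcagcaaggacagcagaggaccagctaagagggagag
HLA-DRB1 (chr6:32589799-32590098, GRCh38.p14, minus strand): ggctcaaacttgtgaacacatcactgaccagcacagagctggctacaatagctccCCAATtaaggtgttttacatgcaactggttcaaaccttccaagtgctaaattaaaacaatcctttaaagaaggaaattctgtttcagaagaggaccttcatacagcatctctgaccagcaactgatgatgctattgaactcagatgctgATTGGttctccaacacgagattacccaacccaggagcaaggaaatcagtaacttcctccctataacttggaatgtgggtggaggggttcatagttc
HLA-DPB1 (chr6:33075740-33076039, GRCh38.p14, plus strand): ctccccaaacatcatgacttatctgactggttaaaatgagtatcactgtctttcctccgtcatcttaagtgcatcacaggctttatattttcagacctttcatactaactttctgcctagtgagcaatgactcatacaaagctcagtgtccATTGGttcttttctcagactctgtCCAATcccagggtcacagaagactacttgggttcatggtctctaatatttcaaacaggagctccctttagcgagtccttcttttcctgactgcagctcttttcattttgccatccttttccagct

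HLA-B, a classical class I heavy chain, had 3 matches and 22 CpG dinucleotides in its window. TNF, the cytokine gene of class III, had 0 matches and 11 CpG. HLA-DRB1 and HLA-DPB1, beta chains of class II, had 2 matches each, with 1 and 2 CpG. Taking the first listed window of each protein-coding gene that has one, the motif stood in 21 of 45 windows of class I (46.7%), 20 of 55 of class III (36.4%) and 20 of 33 of class II (60.6%). The share over all 15842 protein-coding genes with a window was 36.4%. Counting any window of a gene with several starts, the shares were 48.9%, 38.2% and 63.6%, against 42.1% over all. Of the class II chains with a window it stood in 7 of 8, and of the peptide-loading genes HLA-DMA, HLA-DMB, HLA-DOA and HLA-DOB, whose products edit or regulate the peptides on class II, in 4 of 4. Of a class III list of complement genes (C2 and CFB), TNF family genes (TNF, LTA and LTB) and 2 other immune genes (LST1 and AIF1) it stood in 0 of 7. Of the other listed class III genes it stood in 4 of 10. In class I it stood in 2 of 2 classical genes (HLA-B and HLA-C) and 1 of 2 non-classical genes (HLA-F and HLA-G). It also stood in 2 of 2 class I-like genes (MICA and MICB). The class II part also holds the class I processing genes TAP1, TAP2, PSMB8, PSMB9 and TAPBP, the peptide transporter, proteasome and tapasin genes. Of these the motif stood in 2 of 5, and their windows had a median of 22 CpG. Windows of the class II chains had a median of 2 CpG, with a range from 1 to 27. The median was 16 over the windows of class II and 22 over all protein-coding genes with a window. A match describes letters only and says nothing of binding.

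VCaP lay above LNCaP through class I and most of class III, whereas class II held differences of both signs. VCaP was in the associated state of the deposited model in 76 of the 95 MHC bins (80.0%), against 44.4% of bins in the genome, and LNCaP in 25 (26.3%), against 37.9%. With any enrichment over 0 taken as the state, the LNCaP order was the other way, with 61.1% of MHC bins against 56.9% in the genome, and VCaP had 86.3% against 66.9%. The median log2 enrichment of the MHC was 0.57 in VCaP (SD over bins 0.37, noise SD of the mean 0.04) and 0.07 in LNCaP (SD 0.25, noise SD 0.03). Genome medians were 0.19 in VCaP and 0.06 in LNCaP, so the LNCaP level of the MHC was near its genome level and that of VCaP lay 0.38 above it. The mean VCaP minus LNCaP difference over the MHC was 0.48 (noise SD 0.05), and 0.34 after each line was centred on its genome median, which removes a shift of 0.13 between the lines. VCaP lay above LNCaP in 79 of 95 bins, where 58.1% of all bins do.

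**Figure D1:**
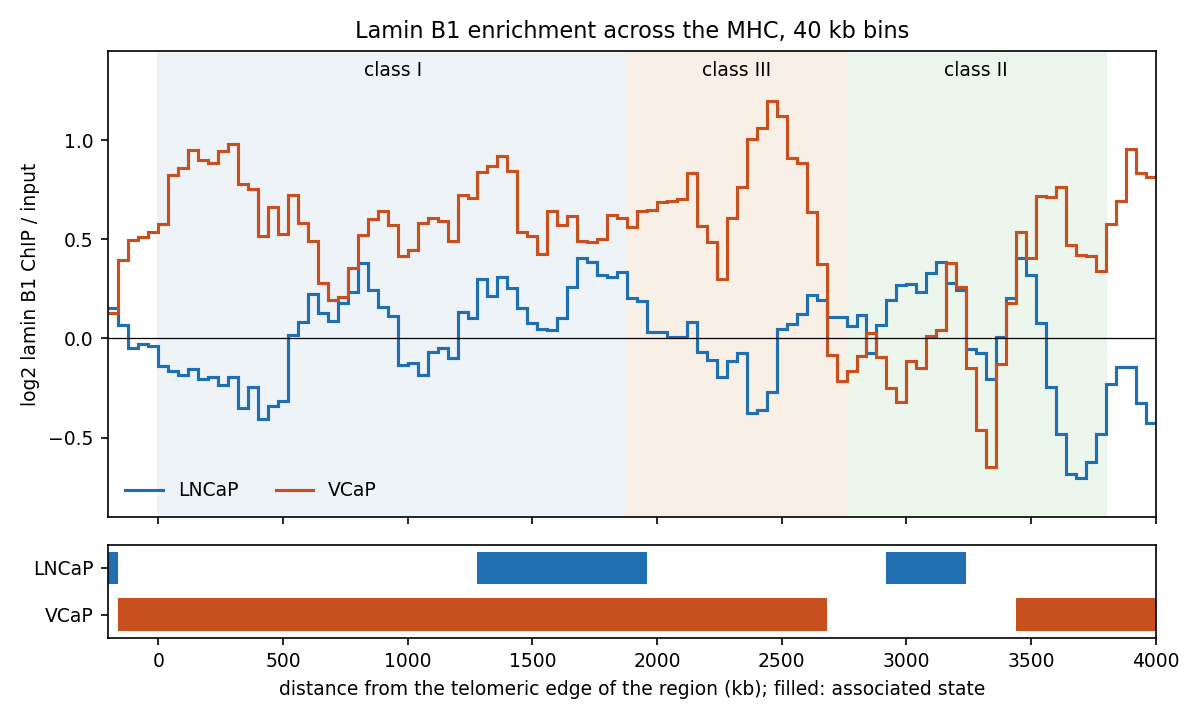
Log2 lamin B1 ChIP over input in each 40 kb bin (vertical axis) against distance in kb from the telomeric edge of the MHC, with 200 kb beyond either edge. Blue is LNCaP, orange is VCaP, shading marks the classes, and filled bars below mark the associated state. VCaP is filled through class I and most of class III and empty through the telomeric part of class II.

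Class I, with the HLA-B and HLA-C heavy chain genes, was associated throughout in VCaP. All 47 bins carried the associated state, against 44.4% of bins in the genome. The lowest value was 0.19, the median 0.60 and the highest value 0.98. In LNCaP 15 of the 47 bins were associated (31.9%, genome 37.9%), and the values ran from -0.41 through a median of 0.08 to 0.41. The lines' values overlapped as sets, but in each of the 47 bins VCaP was the higher. The mean difference was 0.59 (noise SD 0.07), and 0.45 after centring.

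Within class I the difference changed along the chromosome. It was over 1 in the 7 bins from 29680001 to 29960000, near the telomeric end where HLA-F and HLA-G, which encode non-classical class I heavy chains, come early in the gene order. There VCaP ranged from 0.78 to 0.98 and LNCaP from -0.35 to -0.15, and since the bins were picked for a difference over 1, that separation is set by the choice. The highest VCaP bin of the class, 29880001 to 29920000, reached 0.98 in VCaP with -0.19 in LNCaP. The lowest LNCaP bin followed at 30000001 to 30040000, with -0.41 in LNCaP and 0.51 in VCaP. The lines then converged for a stretch. The lowest VCaP bin, 30280001 to 30320000, had 0.19 in VCaP and 0.09 in LNCaP, a difference of 0.10 that lies inside the 95% noise limit of 0.53 for a single bin. Further on the lines parted again. The difference was 0.36 in the bin starting at 30440001, 0.77 at 30640001 and 0.60 at 30840001.

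The only stretch of the MHC associated in both lines lay at the centromeric end of class I and went on into class III. A LNCaP associated run spanned 17 bins from 30880001 to 31560000 and crossed the border with class III, and by gene order HLA-C, HLA-B, MICA and MICB (the last of which encode stress ligands of NKG2D) come last before that border. LNCaP averaged 0.23 there (SD over bins 0.11, range 0.04 to 0.41) and VCaP 0.63 (SD 0.15, range 0.43 to 0.92). The mean difference was 0.40. This stretch and those described in class II were bounded by the states, which follow from the same values, so their means are descriptions only. The highest LNCaP bin of class I, 31280001 to 31320000, had 0.41 in LNCaP and 0.49 in VCaP, which is a difference of 0.09 and within noise. The bins on either side of the class I and III border, 31440001 to 31480000 and 31480001 to 31520000, had 0.34 and 0.20 in LNCaP and 0.61 and 0.56 in VCaP, so neither line had a border of states there.

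Class III, the part with the most genes per Mb, held the highest VCaP values of the MHC. VCaP was associated in 20 of 22 bins (90.9%, genome 44.4%), with values from -0.22 through a median of 0.67 to 1.20. LNCaP was associated in 2 of 22 bins (9.09%, genome 37.9%), both at the class I border. Its values ran from -0.37 through a median of 0.03 to 0.22. VCaP was higher in 20 bins and lower in the 2 bins next to class II. The mean difference was 0.66 (noise SD 0.10), and 0.53 after centring. Between deposited values 3 bins apart, class III noise was 0.27 in VCaP (genome 0.23) and 0.14 in LNCaP (genome 0.15).

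The 3 largest differences of the MHC were neighbours in class III and share averaged entries, so they are not separate measurements. The bin from 32040001 to 32080000 had 1.20 in VCaP and -0.27 in LNCaP, which differ by 1.47. The bin before it had 1.06 in VCaP and -0.36 in LNCaP, and the bin from 31960001 to 32000000 had 1.01 and -0.37. These 3 bins include the lowest LNCaP bin and the highest VCaP bin of the class. With the averaging undone, LNCaP had -1.01 in the bin starting at 31960001, but 0.068 at 32000001 and 0.13 at 32040001. The low deposited LNCaP values of the later bins thus include the low entry at 31960001. VCaP had 1.08, 1.23 and 1.28 in the same order. Class III also holds the near-identical genes C4A and C4B, which encode complement C4. Reads can be split between such copies, and since genes were not placed in bins, the bins concerned cannot be named. The highest LNCaP bin of class III, 32200001 to 32240000, had 0.22 in LNCaP and 0.64 in VCaP.

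The VCaP associated run through class I and class III ended before class II began. It spanned 71 bins from 29440001 to 32280000, a length of 2840 kb, with a mean of 0.65 (SD over bins 0.21), and 67 of its bins lay in the MHC. By length it ranked number 85 of 1200 VCaP runs, whose median length was 600 kb. Its last bin had 0.38 and the next had -0.09. The bins on either side of the border of class III and class II, 32320001 to 32360000 and 32360001 to 32400000, had -0.22 and -0.16 in VCaP, and 0.11 and 0.06 in LNCaP. With the averaging undone the VCaP value was 1.20 in the bin starting at 32160001, and 0.11 and -0.19 in the bins after it.

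**Figure D2:**
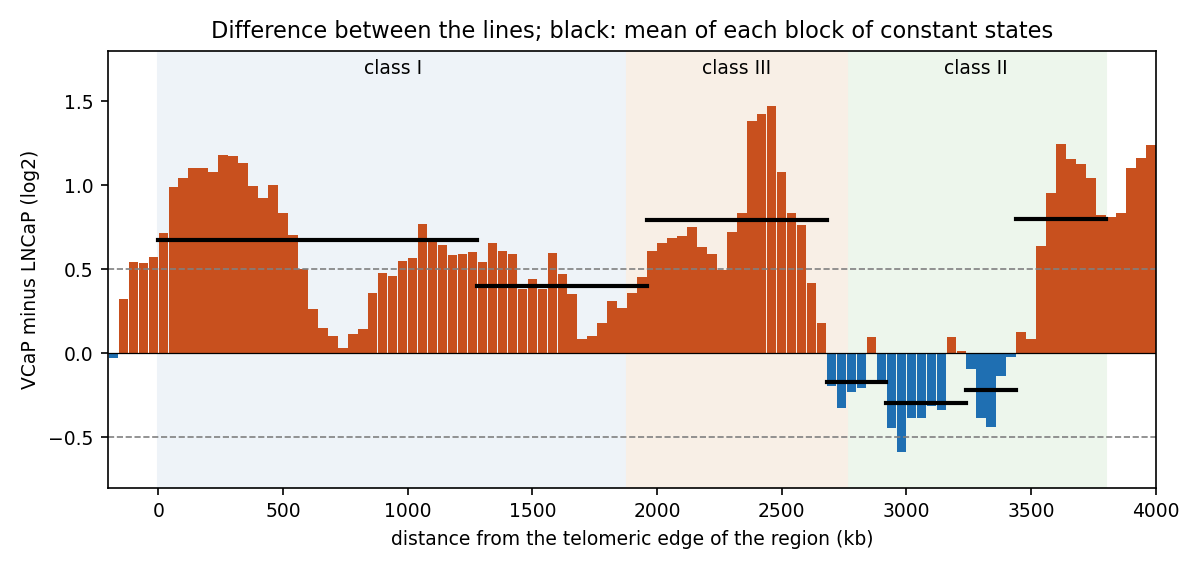
VCaP minus LNCaP log2 difference in each 40 kb bin (bars, orange where VCaP is higher and blue where LNCaP is higher) against distance in kb from the telomeric edge of the MHC. Black lines are means of the 7 blocks of constant states, which lie between -0.29 and 0.80, and dashed lines mark 0.5 in either direction.

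In class II the lines had a small mean difference because differences of opposite sign cancelled, with an SD of 0.58 over its bins. VCaP was associated in 9 of 26 bins (34.6%, genome 44.4%) and LNCaP in 8 (30.8%, genome 37.9%). No bin was associated in both, where 20.6% of bins in the genome are. VCaP ranged from -0.65 through a median of 0.03 to 0.77, and LNCaP from -0.70 through a median of 0.07 to 0.41. The mean difference was 0.13 (noise SD 0.09), inside its 95% noise limit, and centring turned it to -0.01. With the averaging undone the VCaP median of class II was 0.28. The noise between neighbouring LNCaP bins in class II, with the averaging undone, was 2.06 times that of the genome (VCaP 0.82 times), and its part in these values was not tested. Between deposited values 3 bins apart, class II noise was 0.20 in LNCaP (genome 0.15) and 0.30 in VCaP (genome 0.23). The noise SDs given use the genome values.

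All 16 MHC bins in which LNCaP lay above VCaP were among the 19 bins from 32280001 to 33040000, where VCaP was not associated. This stretch of 760 kb held 17 bins of class II and the last 2 of class III, and by gene order the HLA-DR and HLA-DQ chains open class II. LNCaP averaged 0.13 there (SD over bins 0.16) and VCaP -0.10 (SD 0.24). The mean difference was -0.23, and -0.37 after centring. The bins were picked by the VCaP state, so the low VCaP mean follows in part from that choice. The ranges overlapped widely, from -0.21 to 0.38 in LNCaP and from -0.65 to 0.38 in VCaP.

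LNCaP had its second associated run of the MHC inside this stretch, with 8 bins from 32520001 to 32840000. LNCaP averaged 0.28 in them (SD over bins 0.06, range 0.19 to 0.38) and VCaP -0.02 (SD 0.24, range -0.32 to 0.38). The mean difference was -0.29, and -0.43 after centring. The smallest difference of the MHC, -0.59, stood here, in the bin from 32560001 to 32600000 with LNCaP at 0.27 and VCaP at -0.32. The next smallest were -0.44 in the bin before it and -0.44 in the bin from 32920001 to 32960000, which had -0.21 in LNCaP and -0.65 in VCaP, the lowest VCaP value of the MHC. This run was short for LNCaP, number 770 by length of 936 runs, and the run at the end of class I was number 501.

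The centromeric 9 bins of class II, from 33040001 to 33400000, again had VCaP associated and LNCaP not. By gene order the centromeric end of class II holds TAPBP, which encodes the tapasin of class I peptide loading, DAXX, which encodes a histone chaperone, and KIFC1, which encodes a kinesin. VCaP averaged 0.53 (SD over bins 0.16) and LNCaP -0.27 (SD 0.43), a difference of 0.80. LNCaP went from 0.41 in the first bin, the highest of the MHC in that line, to -0.70 in the bin from 33280001 to 33320000, the lowest. VCaP stayed between 0.34 and 0.77, with its highest class II bin from 33200001 to 33240000. This VCaP run went on past the edge of the MHC to 34600000, and the bins before and after the edge, at 33360001 and 33400001, had 0.34 and 0.58 in VCaP and -0.48 and -0.23 in LNCaP.

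Counted bin by bin, 49 of the 95 MHC bins lay over 0.5 higher in VCaP, against 21.3% of bins in the genome, and 1 bin lay over 0.5 higher in LNCaP, against 9.32%. After centring the counts were 37 and 6. The 49 bins were 27 in class I, 15 in class III and 7 in class II. A difference over 1 with VCaP higher was found in 16 bins, where 3.84% of all bins have one, and these were 8 in class I, 4 in class III and 4 in class II. With LNCaP higher by over 1 there were 0 bins, where 0.736% of all bins are. By states, 59 bins (62.1%) were associated in VCaP only, against 23.8% in the genome, and 8 (8.42%) in LNCaP only, against 17.2%. The remaining bins were 17 associated in both lines (17.9%, genome 20.6%) and 11 in neither (11.6%, genome 38.4%).

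**Figure D3:**
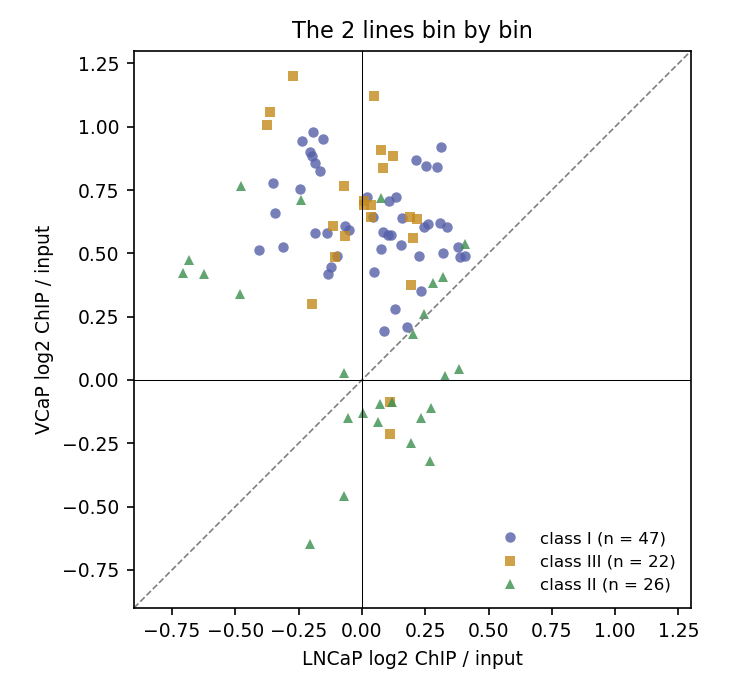
Log2 enrichment of each of the 95 MHC bins in LNCaP (horizontal) and VCaP (vertical), with the classes marked by colour and shape and the dashed line where both are equal. All 47 class I bins lie above the line, and 14 of 26 class II bins lie below it.

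Across the 95 bins the lines did not vary together. Pearson r was -0.20 and Spearman rho -0.25, where the rest of chromosome 6 gave 0.29 and 0.34 over 4099 bins. Within the classes r was -0.26, -0.40 and -0.31 for class I, III and II. These are descriptions across bins of the same libraries in which neighbours share averaged entries, and with the averaging undone r over the MHC was 0.01.

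The states did not follow the level closely in LNCaP. Its 25 associated bins of the MHC ranged from 0.04 to 0.41, with a median of 0.26, below the 0.40 of LNCaP associated bins in the genome. Of the 70 other bins, 27 had values at or above that lowest associated bin, a cut for which no genome share was computed. The highest of them, 0.41 at 33040001 to 33080000, was level with the highest associated bin. Values over 0 were found in 33 of the 70 (47.1%), and in 31.1% of the LNCaP bins not associated in the genome. Such overlap was thus also found across the genome. The associated VCaP bins had a median of 0.61, against 0.54 in the genome, and 2 of the 19 other bins reached the level of the lowest associated one, 0.19. Of those 19 bins 31.6% were over 0, against 41.0% in the genome. By level alone, 57 of 95 bins in VCaP (60.0%) and 9 in LNCaP (9.47%) exceeded the upper quartile of their own genome, which 25% of all bins do by construction, of which 36 and 5 were in class I, 17 and 0 in class III, and 4 and 4 in class II. A level over 0.5 was reached by 60.0% of MHC bins in VCaP, against 25.1% in the genome, and by 0% in LNCaP, against 13.3%. A running median of 5 bins was over 0 in 85.3% in VCaP, against 67.8%, and in 62.1% in LNCaP, against 56.9%.

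**Figure D4:**
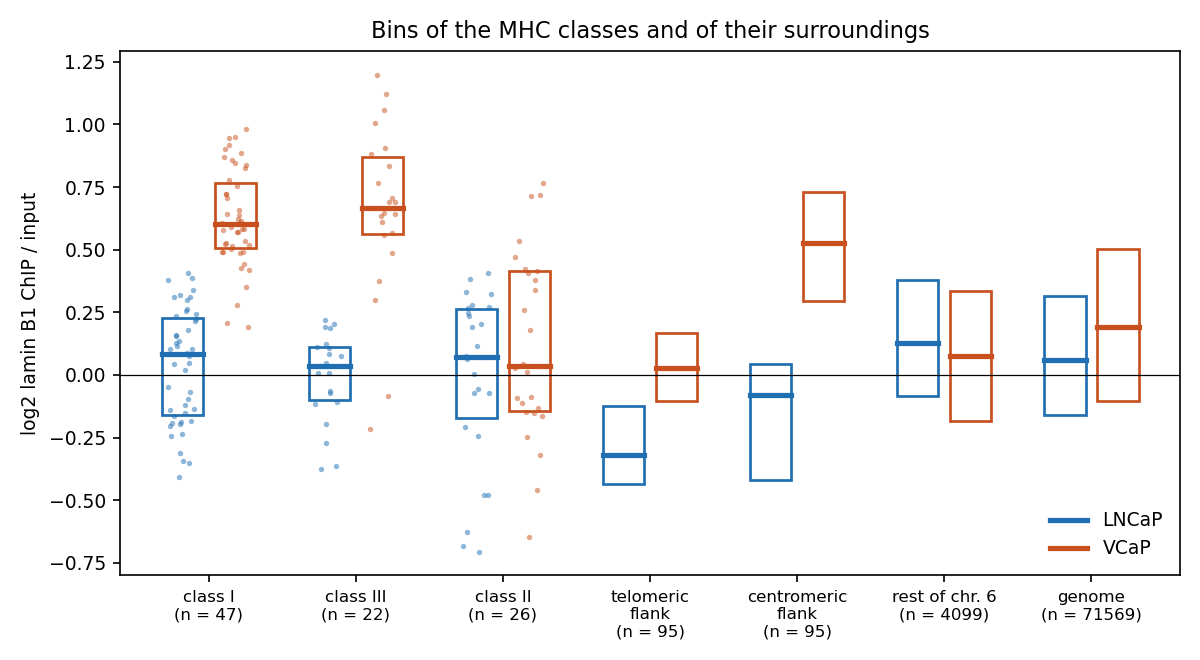
Log2 enrichment by class, in the flanks, in the rest of chromosome 6 and in the genome, with the number of bins under each name. Boxes span the interquartile range, thick lines are medians, and dots are single bins of the classes. The VCaP medians of 0.60 and 0.67 in class I and III lie above its genome median of 0.19, and the LNCaP medians of the classes lie near its genome median of 0.06.

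The MHC differed from the rest of chromosome 6 taken as a whole in the direction of the line difference, but not from its flanks. Outside the MHC the chromosome's median was 0.13 in LNCaP (45.0% of bins associated) and 0.07 in VCaP (29.2%), and the mean VCaP minus LNCaP difference was -0.07. After centring the differences were -0.20 there and 0.34 in the MHC. The telomeric flank of equal length, 95 bins, had medians of -0.32 in LNCaP and 0.03 in VCaP. Its mean difference was 0.28 (0.14 after centring), and 10 bins were associated in LNCaP and 4 in VCaP. All 4 of those VCaP bins belonged to the long run that begins at 29440001 and goes on into the MHC. The centromeric flank had medians of -0.08 in LNCaP and 0.53 in VCaP, with 0 and 80 of 95 bins associated and a mean difference of 0.70 (noise SD 0.05). The VCaP level of the centromeric flank was thus close to that of the MHC, a difference of medians of 0.05, so the VCaP signal was not limited to the MHC on that side. Over the nearest 1 Mb of that flank the MHC median was instead the lower (difference -0.29). In LNCaP the MHC median lay 0.39 above the telomeric and 0.15 above the centromeric flank of equal length, but 0.099 and 0.56 above the nearest 1 Mb of each. On the telomeric side the outermost bins, 29560001 to 29600000 and 29600001 to 29640000, had 0.54 and 0.58 in VCaP and -0.04 and -0.14 in LNCaP.

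**Figure D5:**
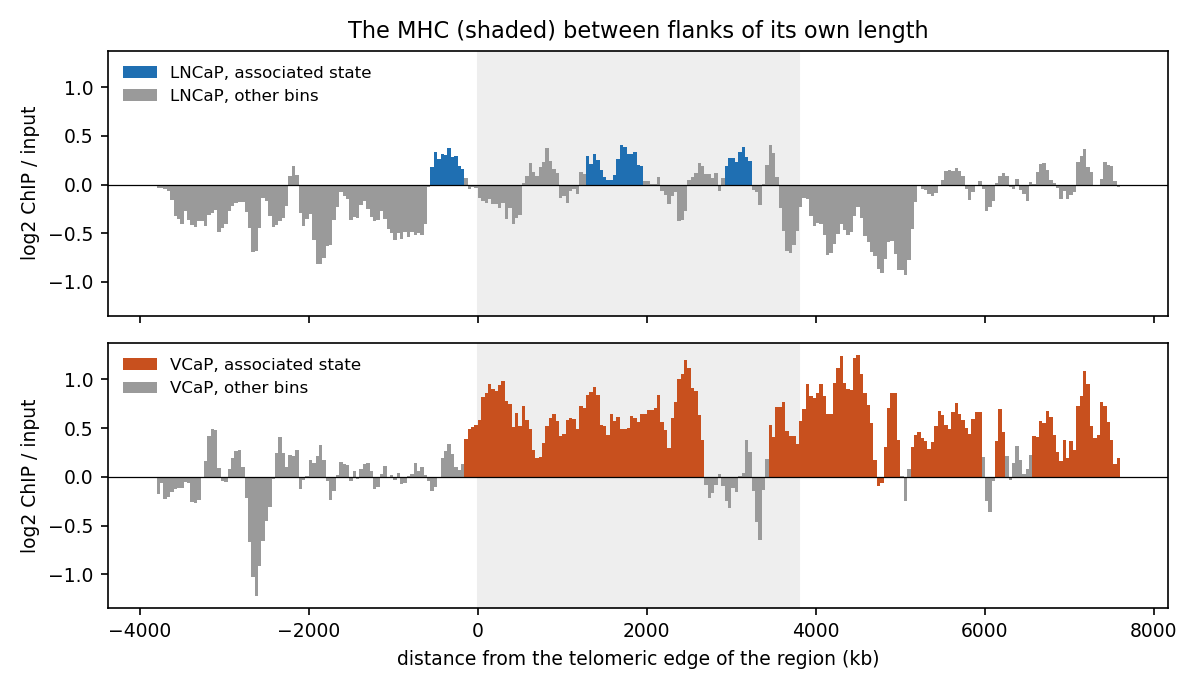
Log2 enrichment in 40 kb bins in LNCaP (upper panel) and VCaP (lower panel) against distance in kb from the telomeric edge of the MHC, with a flank of 3800 kb on each side. The MHC is shaded, coloured bars are bins in the associated state and grey bars the others. VCaP has 4 associated bins in the telomeric flank and 80 in the centromeric flank, and LNCaP has 10 and 0.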

How the data were processed

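Lamin B1 ChIP-seq was done in LNCaP and VCaP cells, with 1 ChIP and 1 input library per line. The deposited values are log2 ratios of ChIP to input that the authors computed per 40 kb bin. A second deposited table labels each bin AD or iAD by a hidden Markov model, as its name says, and AD, the state with the higher enrichment, is called associated. The submitters' processing notes name hg19 and STAR. The scaling of ChIP to input and the model's settings are not given in the sources used here. Read numbers are unknown, so no interval from read counts was computed. Positions count from 1 in hg19.

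The region and its classes were bounded by fixed positions, and a bin was a member where its midpoint lay inside. The members and lists were chosen with earlier results of these data known. Deposited values behave as trailing averages over 3 entries, so the signal lags by about 40 kb and neighbours are dependent. Levels are medians over bins. Noise is a robust SD over the genome, from the absolute differences of bins 3 apart, with a normal 95% limit. The noise of a difference combines both lines, and a region counts as 1 separate value per 3 bins. A bin was called different past 0.5 log2 units. No test was run, because each group has 1 library.

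Named bins are the highest and lowest of each class and line, the 3 largest and 3 smallest differences, those beside each border, and every associated run touching the region. Genes were ordered from a RefSeq table of GRCh38.p14 and not placed in bins, since builds were not mixed. Of the 52 listed genes used inside the classes, the promoter table matched 46, and 1 listed gene is not reported here. A list of antigen presentation genes on other chromosomes was not used here. Alternatives covered the averaging, membership, position, zero point, scaling, state call, threshold, background and flanks. The averaging reversal, and the noise between neighbouring bins with the averaging undone, were tested on simulated data. Those had independent bin noise and flat class levels without domains. The noise from deposited values 3 bins apart, which the noise SDs use, was not tested. Computations used Python 3.11.15 (scipy 1.17.1, numpy 2.4.6, matplotlib 3.10.9, pandas 2.3.3).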

Additional observations from a re-analysis of the deposited data

Results flagged for a closer look

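The contrasts between classes had opposite signs in the lines as deposited, 3 of the 4 values were within noise, and with 1 library pair per line the difference was not tested. The class II median lay 0.038 above that of class III in LNCaP (noise SD 0.08) and -0.63 relative to it in VCaP (noise SD 0.11). The LNCaP contrast is within noise and the VCaP contrast is not. With the averaging undone the VCaP contrast was -0.34. The class I median lay 0.050 above that of class III in LNCaP (noise SD 0.07) and -0.065 relative to it in VCaP (noise SD 0.10), and both are within noise. With the averaging undone these were 0.041 and 0.035, of the same sign.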

How the results depend on the processing

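Of 169 alternative values for 35 results, 46 moved beyond noise or counting range and 0 reversed the sign of a value that lay beyond noise. After centring on the genome medians, the MHC median was 0.012 in LNCaP and 0.38 in VCaP, and the VCaP minus LNCaP mean difference was 0.34 for the MHC and 0.45 for class I. With quantile normalization these were 0.14, 0.48, 0.34 and 0.43. The means over the MHC bins were 0.016 in LNCaP and 0.49 in VCaP. In 9 cases a value changed sign, among them the class II difference, which was -0.0083 when centred, the centred VCaP median of class II, -0.16, and the class I minus class III median of VCaP, 0.035 with the averaging undone. Enrichment over 0 as the associated state gave LNCaP shares of 61.1% in the MHC, 59.6% in class I, 63.6% in class III and 61.5% in class II, and a VCaP share of 57.7% in class II, where the genome shares were 56.9% and 66.9%. A running median of 5 bins over 0 gave LNCaP shares of 62.1%, 59.6%, 63.6% and 65.4% in that order, against 56.9% in the genome. A threshold of 0.5 gave 0% in LNCaP throughout, and 60.0% in the MHC, 76.6% in class I and 15.4% in class II in VCaP, against 13.3% and 25.1% in the genome. The upper quartile of the genome, chosen after seeing the data and exceeded by 25% of its bins, gave 9.47%, 10.6% and 0% in LNCaP for the MHC, class I and class III, and 60.0%, 76.6% and 15.4% in VCaP for the MHC, class I and class II. A difference over 1 left 16 bins with VCaP higher and 0 with LNCaP higher, fewer by construction, against 3.84% and 0.736% in the genome. Bins with LNCaP higher numbered 6 when centred, 3 with quantile normalization, 6 with the averaging undone and 3 with the noise of the difference itself as the limit, which was added after seeing the data. With the averaging undone the class II minus class III median in VCaP was -0.34. Against flanks of 1 Mb the MHC median lay 0.099 above the telomeric and 0.56 above the centromeric flank in LNCaP, and -0.29 relative to the centromeric flank in VCaP. Beyond what the construction of an alternative fixes, the cause was not tested. Bins taken 40 kb downstream, autosomes only and bins away from gaps moved no value beyond noise or counting range. Bins wholly inside the bounds moved none either, but for the MHC, class I and class III these are the same bins. Only values that use class II could change there. No paired analysis was possible because the groups hold only 1 library each. Read depth was not known, so noise between bins is the only limit on single bins.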
